A study of Homo sapiens with 6 samples.

Results

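The genes described here are 10 members of the EGF receptor system: the ligand genes AREG, EREG, HBEGF, TGFA, BTC and EGF, the receptor genes EGFR, ERBB2 and ERBB3, and the inhibitor gene ERRFI1. They were chosen by symbol, taking each probe set annotated to exactly 1 of these symbols, which gave 30 of the 41091 probe sets with 1 gene symbol and 9 of the 19775 genes. For AREG no probe set annotated to that symbol alone was found in the annotation table used, and it is not analysed here. Expression was measured in Caco-2 cells, an established human colorectal adenocarcinoma line that forms an enterocyte-like monolayer. They had grown on a porous membrane for 14 days, and that membrane was then placed above THP-1 cells, a human monocytic leukaemia line differentiated for 4 days with phorbol myristate acetate (PMA) in plates of 12 wells. The 6 groups are 0, 1, 3, 6, 24 and 48 h of this coculture, with 1 array per time and no replicate. No test was possible, every value has n = 1, and no array of Caco-2 cells kept alone for the same times is analysed here.

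The ligands of this family are made as membrane-anchored precursors that proteases release from the cell surface. They bind EGFR or its relatives, which pair with each other and signal through the ERK and PI3 kinase pathways. In the intestinal epithelium this signalling is known for driving proliferation and the closing of wounds. ERBB2 has no known ligand of its own and acts as a partner, ERBB3 has a weak kinase and pairs with the other receptors, and ERRFI1 (also called MIG6) is an induced inhibitor that binds the kinase domain of EGFR.

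The promoter sequences of the 3 genes that passed 2-fold on their brightest probe set, EREG, HBEGF and ERRFI1, and of EGFR, whose probe sets differ, are shown because these genes carry the changes described here. RefSeq windows were found for 9 of the 10 genes, and each printed here is the 250 bases before the gene's start in RefSeq, build GRCh38.p14, 5′ to 3′ on the gene's strand. Capitals mark matches, on either strand, to the GC box GGGCGG, the CCAAT box CCAAT and the TATA box TATAAA. The windows are chr4:74364895-74365144 (plus strand) for EREG, chr5:140346604-140346853 (minus) for HBEGF, chr1:8026310-8026559 (minus) for ERRFI1 and chr7:55018767-55019016 (plus) for EGFR.
EREG: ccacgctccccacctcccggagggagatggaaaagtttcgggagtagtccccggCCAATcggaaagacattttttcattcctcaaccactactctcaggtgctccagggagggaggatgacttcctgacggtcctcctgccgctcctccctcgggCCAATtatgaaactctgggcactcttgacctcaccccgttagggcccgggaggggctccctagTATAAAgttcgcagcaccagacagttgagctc
HBEGF: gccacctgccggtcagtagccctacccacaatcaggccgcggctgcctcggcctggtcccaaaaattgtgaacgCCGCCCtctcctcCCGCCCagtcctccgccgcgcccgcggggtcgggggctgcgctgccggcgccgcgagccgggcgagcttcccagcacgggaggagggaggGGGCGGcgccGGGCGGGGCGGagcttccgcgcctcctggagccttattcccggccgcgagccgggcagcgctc
ERRFI1: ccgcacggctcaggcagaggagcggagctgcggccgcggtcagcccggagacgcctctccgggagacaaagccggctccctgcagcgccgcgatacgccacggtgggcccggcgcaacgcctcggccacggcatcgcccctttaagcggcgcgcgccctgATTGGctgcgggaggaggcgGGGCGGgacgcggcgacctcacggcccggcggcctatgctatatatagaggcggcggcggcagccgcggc
EGFR: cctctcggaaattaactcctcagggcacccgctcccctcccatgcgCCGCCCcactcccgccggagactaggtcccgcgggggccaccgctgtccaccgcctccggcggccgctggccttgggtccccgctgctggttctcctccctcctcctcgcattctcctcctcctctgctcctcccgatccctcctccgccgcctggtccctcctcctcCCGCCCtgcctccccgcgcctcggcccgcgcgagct

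The promoters of these 4 genes differ in these letters. EREG has a TATA box that begins 32 bases before the start and CCAAT boxes at 95 and 196 bases. HBEGF has 5 GC boxes, at 58, 63, 73, 163 and 176 bases, of which the nearest pair share a base. ERRFI1 has a CCAAT box at 90 bases and a GC box at 70, and EGFR has GC boxes at 36 and 204. Of 35116 RefSeq windows of this length, 42.6% hold a GC box, 32.0% a CCAAT box and 10.7% a TATA box. None of the 4 windows holds the AP-1 motif TGANTCA (in 6.57% of windows), the CRE motif TGACGTCA (1.65%), the NF-kB consensus (5.21%) or the CArG consensus (1.16%), searched on both strands. A second EGFR window of RefSeq, which lies downstream, holds 2 AP-1 motifs, at 136 and 232 bases, and TATA boxes at 36 and 146 bases. A match is a description of letters, not of a bound site. On chromosome 4 the coding genes EPGN, EREG, AREG and BTC follow each other directly in the RefSeq order.

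The arrays were alike in overall level, with median signals of 15.3 to 16.7. The signals are MAS5 intensities on a linear scale, and those under 16.2, the 50th percentile of all values, were set to that floor before log2 was taken, which left 12017 to 12296 genes over it per array. Of 17 Caco-2 and enterocyte markers, 16 had a probe set, and 14 to 16 of these were above the floor, with a summed signal of 26720 to 29888. Of 20 macrophage markers, 17 had a probe set, and 7 to 10 were above the floor, with a summed signal that was 1026 at 0 h and 654 to 865 during coculture. PTPRC, SPI1, FCGR2A and CD4 of that list were under the floor on all 6 arrays. CD14, LYZ, ITGAM, AIF1, LAPTM5 and MSR1 were above it on all 6, with LYZ at 199 to 412 and AIF1 at 360 at 0 h and 43.0 at 48 h. Their part in the results was not tested. For ACTB, the manufacturer's control at the 3′ end divided by that at the 5′ end, which reads RNA quality, gave 51.2 at 0 h and 27.7, 22.9, 18.0, 27.9 and 37.0 at 1, 3, 6, 24 and 48 h. For GAPDH the same quotient was 4.69 at 0 h and 3.81, 4.29, 3.54, 4.72 and 4.23 later. Its 0 h value was thus above those at 1, 3, 6 and 48 h and just under that at 24 h. Both quotients were lowest at 6 h.

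Against 0 h, the epidermal growth factor ligands EREG and HBEGF and the inhibitor ERRFI1 were the 3 of 8 measured genes whose brightest probe set passed 2-fold higher at any time, and none passed 2-fold lower. A gene is called measured when at least 1 array was above the floor, and BTC never was. To pass, a difference of 2-fold or more was needed, with the brighter array over the floor. EREG and HBEGF, 2 of the 8, were higher at 1 h, all 3 genes at 3 and 6 h, and EREG and ERRFI1, again 2, from 24 h on. Among all 14760 measured genes the share that was at least 2-fold higher was 1.9%, 3.1%, 4.21%, 3.92% and 3.82% at 1, 3, 6, 24 and 48 h. The share that was at least 2-fold lower was 1.46%, 3.52%, 6.44%, 6.12% and 6.11% in the same order. Over at least 1 of the 5 times, 8.98% of measured genes passed 2-fold higher and 12.9% 2-fold lower. The members were chosen with earlier results of these data known, so these shares are no test of them. In bulk RNA, fewer cells of a kind and less RNA per cell cannot be told apart. The ACTB ratio was largest (51.2) in the 0 h array, the baseline of each comparison. That of GAPDH (4.69) was there just under its largest, 4.72 at 24 h. The part of RNA quality in these results was not tested.

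**Figure D1:**
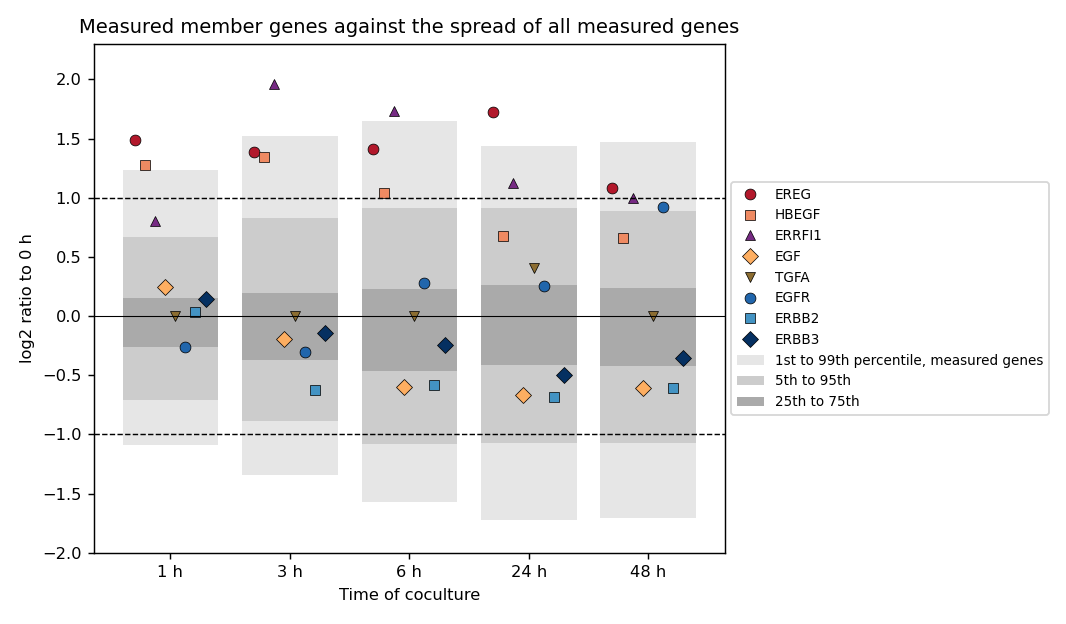
Log2 ratio to 0 h of the 8 measured member genes (coloured points, brightest probe set, 1 array per time) at each coculture time, over grey bars that give percentile ranges of all 14760 measured genes. Dashed lines mark 2-fold. EREG, HBEGF and ERRFI1 lie above the 2-fold line at 2 or more times, and the receptors lie between the lines at each time.

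EREG encodes epiregulin, a ligand of EGFR and ERBB4. Its brightest probe set had signals of 60.4, 170.1, 158, 161, 200.3 and 128 at 0, 1, 3, 6, 24 and 48 h. All 5 coculture arrays were thus above the 0 h array, with the 24 h array highest and the arrays from 1 to 6 h close to each other. These are 2.81-fold, 2.62-fold, 2.66-fold, 3.31-fold and 2.12-fold, log2 ratios of 1.49, 1.39, 1.41, 1.73 and 1.09. At 1 h EREG ranked 85 from the top of the 14760 measured genes, and at 24 h it ranked 78. The step from 0 to 1 h was the only one that passed 2-fold. The later steps on the log2 scale were -0.10 from 1 to 3 h, 0.02 from 3 to 6 h and 0.32 from 6 to 24 h. That from 24 to 48 h was -0.64. With the floor added as a pseudocount the log2 ratio at 48 h was 0.92, under 2-fold. A second EREG probe set was under the floor on each array but that of 48 h, where its signal was 19.5.

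HBEGF encodes the heparin-binding EGF-like growth factor, which also serves as the receptor of diphtheria toxin. Its brightest probe set had signals of 68.2, 165, 174, 141, 109 and 108 at 0, 1, 3, 6, 24 and 48 h. The signal was highest at 1 and 3 h and lower on each later array, though no coculture array came back to the level of 0 h. The folds were 2.42, 2.54, 2.06, 1.60 and 1.58, so the size rule was passed at 1, 3 and 6 h only, and at 6 h not with the pseudocount, where the log2 ratio was 0.89. A second probe set of HBEGF had signals of 59.3, 122, 86.6, 114, 87.7 and 85.0. It was also lowest at 0 h, but it passed 2-fold at 1 h alone, its log2 ratio at 1 h being 1.04 where the first had 1.28, and at 3 h 0.55 where the first had 1.35. Both probe sets were higher than at 0 h at all 5 times. The 2 other HBEGF probe sets were under the floor on all arrays.

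From 6 to 24 h EREG had a log2 step of 0.32 and HBEGF one of -0.37, neither past 2-fold, and at 48 h their brightest probe sets stood at 64.1% and 62.0% of their highest signals. With no replicate, neither step has an error, and whether both genes differ after 6 h was not tested.

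The other ligand genes were under the floor on most arrays or did not pass 2-fold. EGF, the founding ligand of the family, had signals of 81.4, 96.5, 71.2, 53.7, 51.2 and 53.4 on its single probe set. The 3 arrays from 6 to 48 h lay below the 3 earlier ones, at log2 ratios of -0.60, -0.67 and -0.61, short of 2-fold. TGFA encodes transforming growth factor alpha, and 2 of its 3 probe sets were under the floor on all arrays. The brightest reached 21.5 at 24 h, at least 1.32-fold over the 0 h array, which was under the floor. With the floor at the 30th percentile its log2 ratio at 24 h was 1.26, past 2-fold. BTC encodes betacellulin, and both of its probe sets were under the floor on all arrays, with a highest signal of 15.1. The 4 measured ligands of 6 had a median of 0.76, 0.67, 0.52, 0.54 and 0.33 on the log2 scale in the order of the times, and all measured genes had 0, -0.014, -0.038, 0 and -0.0041. TGFA enters as 0 at 1, 3, 6 and 48 h, where it was under the floor. Other measured genes under the floor on both arrays of a comparison enter as 0 too. Over the 10436 genes above the floor on all arrays the median was -0.042, -0.097, -0.137, -0.072 and -0.098. With the floor at the 30th percentile the ligand median was 0.97 at 24 h and 0.083 at 48 h. With the median over probe sets, which takes in those under the floor, it was 0.38, 0.14, 0.24, 0.14 and 0.13.

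**Figure D2:**
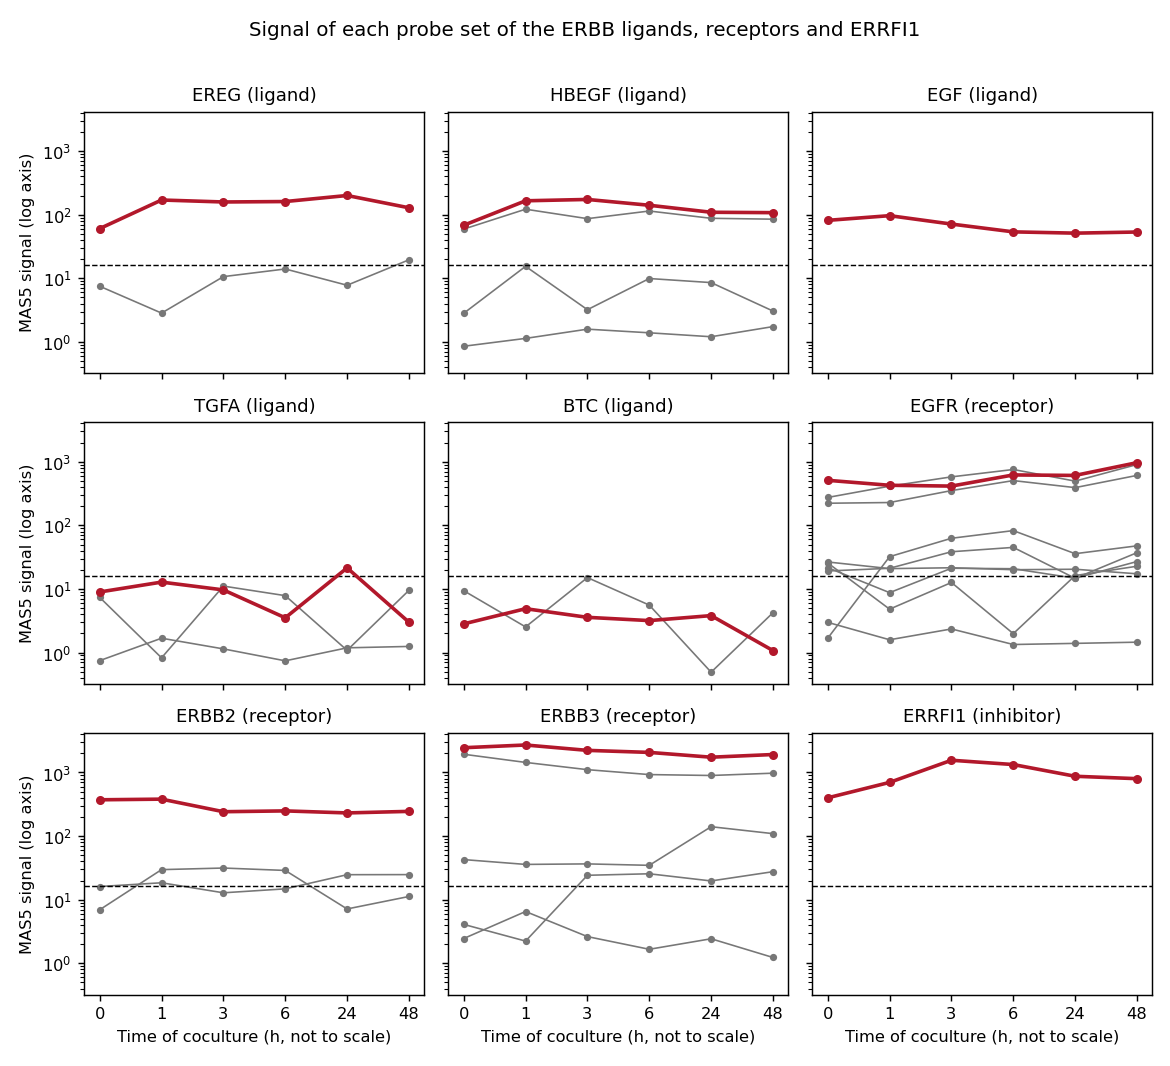
MAS5 signal (log axis) of all 30 probe sets of the 9 genes with a probe set, at 6 times of coculture, 1 array per time. The thick red line is the brightest probe set of the gene (for BTC, where both are under the floor, the first listed), grey lines are its other probe sets and the dashed line is the floor of 16.2; red lines of EREG, HBEGF and ERRFI1 are lowest at 0 h.

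ERRFI1, the feedback inhibitor of EGFR, had the largest log2 ratio of the 8 measured genes on their brightest probe sets. Its single probe set had signals of 399, 698, 1556, 1331, 871 and 799 at 0, 1, 3, 6, 24 and 48 h. The signal was highest at 3 h, 3.90-fold above 0 h, and then lower on each later array. At 1 h it was 1.75-fold above 0 h, short of the rule that EREG and HBEGF had already passed, and the step from 1 to 3 h was 2.23-fold, a step that 1.34% of measured genes made. At 3 h it ranked 66 from the top of all measured genes. At 48 h the fold was 2.0, on the edge of the rule, with the signal at 51.3% of its highest. The log2 ratio there was 0.99 under quantile normalization and 0.97 with the floor added as a pseudocount, both under 2-fold.

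The receptor genes did not pass 2-fold on their brightest probe sets, but the probe sets of EGFR did not move alike. EGFR encodes the receptor of EGF, EREG, HBEGF and TGFA. Its brightest probe set, 201984_s_at, had signals of 511, 427, 414, 621, 610 and 968, which is a log2 ratio of -0.26, -0.30, 0.28, 0.26 and 0.92 at 1, 3, 6, 24 and 48 h. A second, 201983_s_at, had 275, 413, 579, 756, 496 and 904, so that it was 2.11-fold, 2.75-fold and 3.29-fold higher at 3, 6 and 48 h. Another, 224999_at, had 223, 229, 352, 506, 392 and 610 with folds of 2.27 at 6 h and 2.74 at 48 h. All 3 were highest at 48 h and next highest at 6 h, and they differed in the level at 0 h relative to the later arrays.

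The remaining EGFR probe sets were dim. The probe set 210984_x_at was under the floor at 0 h, at 1.68, and had 32.2, 62.7, 82.8, 35.9 and 47.6 afterwards, at least 5.10-fold higher at 6 h. The probe set 211607_x_at had 19.2 at 0 h, 38.5 at 3 h and 45.1 at 6 h, but 14.7 at 24 h. In contrast, 1565484_x_at was highest at 0 h, at 26.6, and lowest at 48 h, at 17.3. Of the 4 EGFR probe sets above the floor on all arrays, log2 ratios at 6 h thus ran from -0.40 to 1.46 and at 48 h from -0.62 to 1.72. The direction of EGFR at 3 h depends on the probe set: with 224999_at in place of the brightest the log2 ratio was 0.66, and the median over probe sets was 0.59. At 24 h that median, which takes in the dim probe sets, was -0.33.

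ERBB3 encodes the receptor of neuregulins, and its bright probe sets were lower late in coculture. The brightest, 226213_at, had signals of 2449, 2702, 2224, 2067, 1737 and 1914, with a lowest log2 ratio of -0.50 at 24 h. The second, 202454_s_at, had 1933, 1438, 1106, 926, 896 and 974 and lay 2.09-fold below 0 h at 6 h and 2.16-fold below it at 24 h. A dimmer one, 215638_at, went the other way: it had 42.7, 35.8, 36.5 and 34.7 at 0 to 6 h and then 140 and 109 at 24 and 48 h. That is 3.29-fold and 2.56-fold higher than at 0 h, and a rise that none of the first 4 arrays shows. All 3 were above the floor on all arrays, and whether they read different transcripts was not tested.

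ERBB2, the partner receptor, had signals of 372, 381, 241, 249, 231 and 244 on its brightest probe set. The 0 and 1 h arrays were close to each other and the later 4 were close to each other, with log2 ratios of -0.62, -0.58, -0.69 and -0.61 from 3 h on, short of 2-fold. Its 2 other probe sets were near the floor, with highest signals of 31.4 and 24.8. Both were under the floor at 0 h, so they could not show a fall. The median over probe sets takes them in, and its log2 ratio was 0.95 at 3 h and 0.61 at 24 h. Over the 3 receptors the median log2 ratio of the brightest probe sets was 0.03, -0.30, -0.24, -0.50 and -0.36. This direction turns with the choice of probe sets. It was -0.25, 0.59, 0.81, 0.61 and 0.61 with the median over probe sets, which takes in the dim ones. Its values at 24 and 48 h are those of ERBB2, from probe sets that were under the floor at 0 h. Without probe sets ending in _x_at or _s_at it was 0.09, 0.26, 0.47, 0.16 and 0.55, where ERBB2 has no value.

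**Figure D3:**
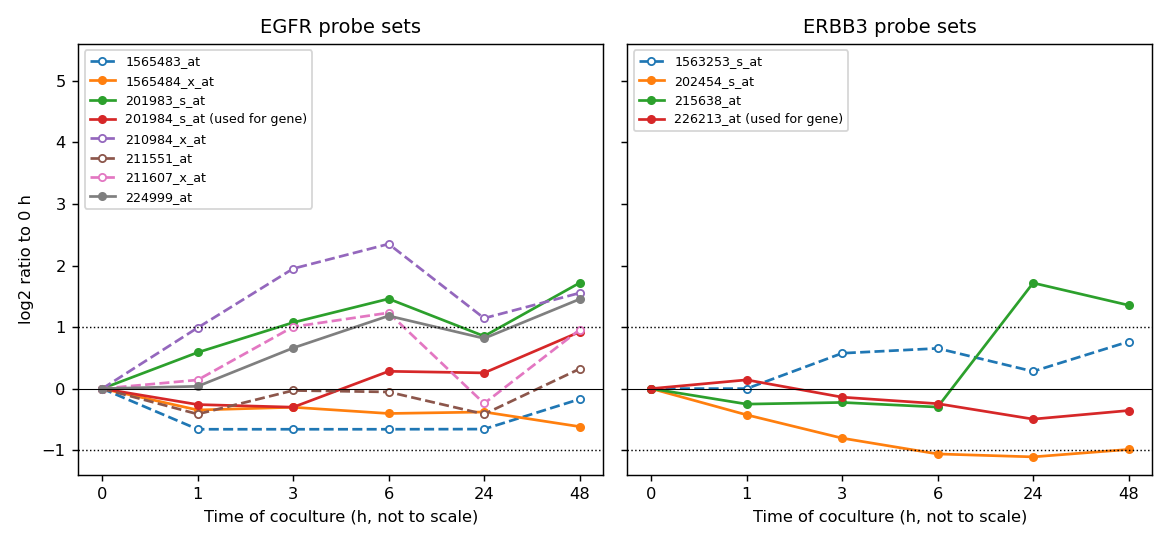
Log2 ratio to 0 h of each EGFR and ERBB3 probe set that was above the floor on at least 1 array, at 6 times of coculture. Solid lines with filled points are probe sets above the floor on all 6 arrays, dashed lines with open points are the others, and dotted lines mark 2-fold. At 48 h the EGFR probe sets run from -0.62 to 1.72, and 215638_at of ERBB3 is at 1.36 where 202454_s_at is at -0.99.

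Counted by probe set, 22 of the 30 were above the floor on at least 1 array and 13 on all 6. Of these 22, 3, 6, 7, 4 and 6 were at least 2-fold higher at 1, 3, 6, 24 and 48 h, and 0, 0, 1, 1 and 0 lower, the 1 being 202454_s_at of ERBB3. Over 28029 such probe sets of all genes the share that was higher was 2.82%, 4.99%, 5.88%, 5.06% and 5.36%, and the share that was lower 1.54%, 3.14%, 5.6%, 5.05% and 4.84%. EGFR gave 4 of the 7 at 6 h and 3 of the 6 at 48 h. Probe sets of a gene share its RNA and are not independent of each other.

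The rises of EREG and HBEGF rest on the 0 h array, and a 1 h baseline takes the rise of the first hour out by construction. Set against the 1 h array, EREG had log2 ratios of -0.10, -0.080, 0.24 and -0.41 at 3, 6, 24 and 48 h, and HBEGF 0.07, -0.23, -0.60 and -0.62. ERRFI1 was still 1.16 higher at 3 h and 0.93 at 6 h, and EGFR 1.18 at 48 h. On that baseline 1 member was at least 2-fold higher at 3 h (ERRFI1), 1 at 48 h (EGFR) and 0 at 6 and 24 h, where the share of all measured genes was 1.34%, 2.43%, 2.54% and 2.97% at 3, 6, 24 and 48 h. When all probe sets of a gene were combined by their median, EREG was at 0.75 and HBEGF at 0.52 at 1 h, and neither passed 2-fold at any time. That median takes in the second EREG probe set and 2 HBEGF probe sets, which were all under the floor at 0 and 1 h.

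By the root mean square difference of the 5 log2 ratios to 0 h, on the brightest probe sets, the genes most like HBEGF were CHPF (0.064), NKPD1 (0.12) and NCOA7 (0.15). Those most like ERRFI1 were BMP2 (0.12), a secreted factor of the TGF-beta family, TNFRSF10A (0.15), a receptor of the death ligand TRAIL, and DOT1L (0.15), a histone methyltransferase. BMP2 had signals of 690 at 0 h, 2305 at 3 h and 1487 at 48 h. For EREG they were NOCT (0.22), FZR1 (0.23) and RASA3 (0.28), of which FZR1 and RASA3 were under the floor at 0 h, with signals of 2.58 and 12.4. Each of these likenesses is over 6 arrays that share 1 baseline.

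Other genes of the pathway were read from lists by role. Of 80 genes listed, 70 had a probe set of that symbol alone and 66 were measured, and 10, 14, 13, 7 and 7 of these were at least 2-fold higher at 1, 3, 6, 24 and 48 h, and 0, 0, 1, 2 and 3 lower. Among all measured genes the shares were 1.9%, 3.1%, 4.21%, 3.92% and 3.82% higher and 1.46%, 3.52%, 6.44%, 6.12% and 6.11% lower. The response genes of ERK signalling gave 9, 12, 12, 7 and 5 of those rises among 16 members, and none was 2-fold lower. The lists were chosen with earlier results of these data known, so these counts are no test of an ERK response. Their median log2 ratio was 1.13, 1.71, 1.67, 0.78 and 0.63. By the naming rule these were IER3, EPHA2, PHLDA1 and EGR1. IER3, an immediate early gene, had signals of 380, 3763, 3312, 2783, 1123 and 564, and EGR1, a zinc finger transcription factor, 714, 4944, 4071, 2718, 963 and 1232. Both were highest at 1 h. PHLDA1 had 305, 826, 2038, 2314, 1599 and 1032, highest at 6 h, and EPHA2, a receptor tyrosine kinase, 50.5, 378, 347, 452, 224 and 122. At 48 h the 5 were DUSP5, DUSP6, SPRED1, PHLDA1 and EPHA2, the first 3 inhibitors of the ERK pathway named after their values were seen.

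The other lists, of 2 to 15 measured genes, gave 0 or 1 gene in either direction at a time. Among all measured genes 1.9% to 4.21% were higher and 1.46% to 6.44% lower over the 5 times, and nothing is read from counts this small. Among genes of receptor degradation and restraint, 1 of 15 was higher at 3 and at 6 h and 1 was lower at 24 and at 48 h. LRIG3 had signals of 81.7 at 0 h, 187 at 3 h and 232 at 6 h, and LRIG1, which restrains ERBB receptors, 425 at 0 h, 174 at 24 h and 193 at 48 h. With the median over its probe sets LRIG1 was at log2 ratios of 0.32 and 0.26 at 24 and 48 h. That median was at the floor at 0 h, with ratios of exactly 0 at 1 and 6 h, so it could not show a fall. LRIG1 has only probe sets ending in _x_at or _s_at. STAM2, of the sorting machinery of endosomes, was higher at 48 h, 428 against 158, a log2 ratio of 1.43 that was 0.65 with the median over probe sets. Of 9 measured kinase core genes, MAPK3, which encodes ERK1, was 2.12-fold above 0 h at 1 h and 2.07-fold above it at 3 h, and AKT1 was 2.29-fold below it at 48 h. With the pseudocount none of these passed, at log2 ratios of 0.96 and 0.94 for MAPK3 and -0.97 for AKT1, and both genes have only probe sets ending in _x_at or _s_at. None of the 11 adaptor genes passed 2-fold in either direction at any time.

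Among the 13 measured genes of ligand shedding and trafficking, AP1M2, a subunit of a sorting adaptor of epithelial cells, went from 211 at 0 h to 97.8 at 6 h and 99.6 at 24 h, and did not pass at 24 h with the median over probe sets (-0.79), nor at either time with the pseudocount (-0.97 at 24 h). ADAM17, the main protease that releases EREG, HBEGF and TGFA, had signals of 199, 272, 304, 345, 322 and 418 and was 2.10-fold higher at 48 h on its brightest probe set. Its log2 ratio there of 1.07 was 0.10 with the median over probe sets and -0.25 without those ending in _x_at or _s_at, so the direction depends on the probe set. RHBDF2, which escorts ADAM17 to the cell surface, was at 49.0 at 0 h and 16.7 at 48 h, a log2 ratio of -1.55 that was -0.39 with the floor at the 65th percentile and -0.99 with the pseudocount. ADAM17, RHBDF2, STAM2 and AKT1 were named after their values were seen, because they make up counts of 1. Of the other ERBB ligands and receptors, NRG1 and NRG2 were the 2 measured of 7, near the floor with highest signals of 23.8 and 19.2, and neither passed 2-fold. ERBB4 was under the floor on all arrays.

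**Figure D4:**
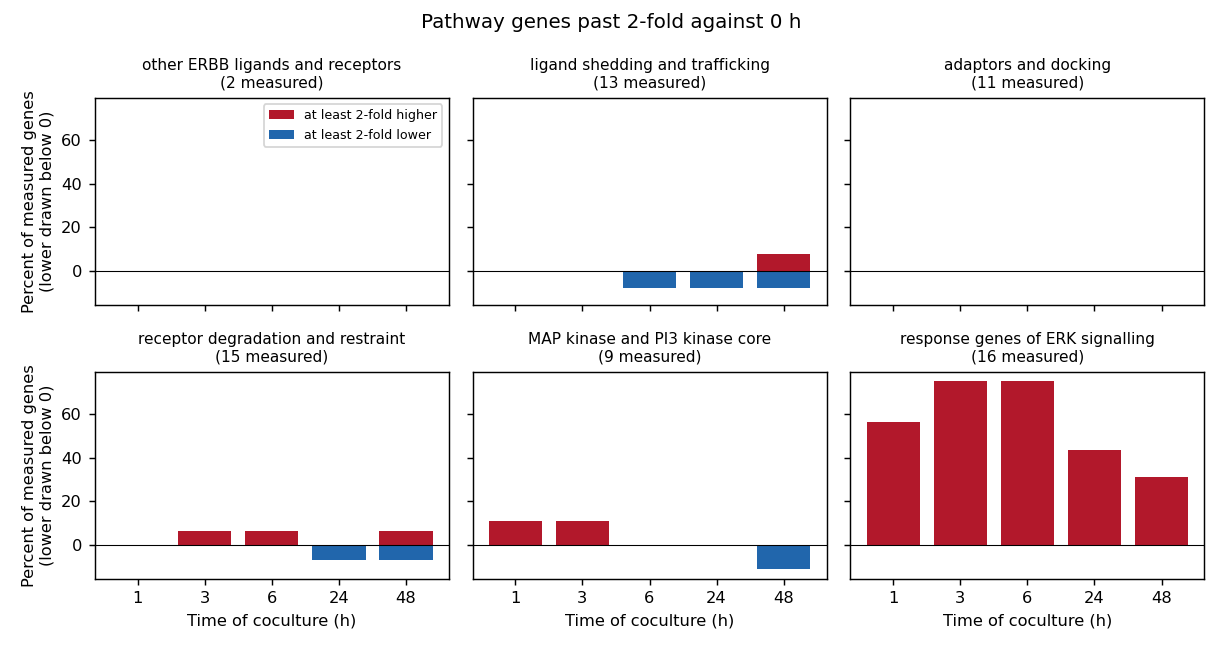
Percent of the measured genes of each of 6 pathway lists that were at least 2-fold higher (red, above 0) or lower (blue, drawn below 0) than at 0 h, at 1, 3, 6, 24 and 48 h, 1 array per time. The response genes of ERK signalling reach 12 of 16 at 3 and 6 h, and each other list has at most 1 gene in either direction at a time. The lists were chosen with earlier results of these data known.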

How the data were processed

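Deposited values were the authors' MAS5 intensities, linear, 1 per probe set, for 6 arrays. The submitters' processing notes name MAS5 without a version; no scaling target or detection call is stated, nor is a genome build. MAS5 scales each array by a trimmed mean; the 2% trimmed mean was 93.8 on each array, and nothing was rescaled. RNA was extracted with ISOGEN and RNeasy, per the labels' protocols. Precision is limited by the number of arrays.

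Of 54675 probe sets, 41097 carried 1 symbol (6 of them controls, left out), 1801 several and 11777 none in the platform annotation. Symbols were updated by gene identifier through a RefSeq table of GRCh38.p14, which held 41043 of them. Each gene is read from its probe set with the highest mean floored log2 signal, and 10523 genes have at least 2. The members and lists were chosen with earlier results of these data known. All members are named. In each pathway list up to 4 genes are named, those past 2-fold the same way at 2 neighbouring times, by size. For each member past 2-fold the 3 most alike genes are named. A protein comparison that was planned was not made. The size rule was run on simulated data, with planted changes larger than 2-fold in genes brighter at 0 h than EREG and HBEGF. That run cannot judge calls near 2-fold or in dimmer genes. Alternatives were quantile normalization, a common median, floors at the 30th and 65th percentiles, a pseudocount, the median over probe sets, leaving out _x_at and _s_at probe sets, the 1 h array as baseline, and 1.5-fold and 3-fold rules. Python 3.11.15, pandas 2.3.3 and numpy 2.4.6 were used.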

Additional observations from a re-analysis of the deposited data

How the results depend on the processing

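There is 1 array per time, so no spread between cultures is known, and signals near the floor of 16.2 are the least certain. No paired analysis was possible because no time has a second sample. An alternative was taken to keep a count when it stayed within 1.5 times, and a log2 ratio when it moved by less than the robust spread between probe sets of the same gene, 0.18 to 0.51 by signal. Of 196 comparisons of the counts of members and of all pathway genes with an alternative, 147 kept the count in that sense and 49 did not. Of 973 other comparisons, 834 did, 135 moved and 4 were called ratios that changed sign. A common median and the floor at the 65th percentile moved none of the counts of members or of all pathway genes. Without _x_at and _s_at probe sets ERBB2 has no value.

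Members higher at 1, 3, 6, 24 and 48 h numbered 2, 3, 3, 2 and 2. At 48 h there were 1 under quantile normalization and 0 with the pseudocount. With the floor at the 30th percentile there were 3 at 24 h, TGFA among them. With the median over probe sets there were 0 at 1 h, 1 at 3 h and 1 at 6 h. With the 1 h baseline there were 1, 0, 0 and 1 at 3, 6, 24 and 48 h. The 3-fold rule left 0 at 1 h, 1 at 3, 6 and 24 h and 0 at 48 h, and the 1.5-fold rule gave 4 at 48 h. Members lower numbered 1, 1, 2 and 2 at 3, 6, 24 and 48 h with the 1.5-fold rule, against 0. The 4 called ratios that changed sign were those of EREG at 3, 6 and 48 h (-0.10, -0.080 and -0.41) and of HBEGF at 6 h (-0.23), all against the 1 h array, which takes the rise of the first hour out by construction. Called or not, 17 of 307 ratios of single members changed sign, 6 of them against the 1 h array, 9 with the median over probe sets and 2 without _x_at and _s_at probe sets. So did 13 of 78 medians of the ligands or the receptors, under the same 3 alternatives. Examples with the median over probe sets are EGFR at 3 h (0.59) and 24 h (-0.33), ERBB2 at 3 h (0.95) and ERBB3 at 24 and 48 h (1.72 and 1.36). That median takes in dim probe sets, and for ERBB3 at these times it is the value of 215638_at.

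Pathway genes higher with the 1 h baseline numbered 4, 6, 1 and 2 at 3, 6, 24 and 48 h, and those lower 0, 5 and 9 at 6, 24 and 48 h. The 1.5-fold rule gave 22, 17 and 17 higher at 6, 24 and 48 h and 2, 3, 7 and 6 lower at 1, 3, 6 and 48 h. The 3-fold rule gave 4, 9, 8, 2 and 1 higher over the 5 times and 0 lower at 6, 24 and 48 h. The median over probe sets gave 4 higher at 48 h and 0 lower at 24 h. The pseudocount gave 0, 1 and 1 lower at 6, 24 and 48 h, leaving out _x_at and _s_at probe sets 1 and 1 at 24 and 48 h, and the floor at the 30th percentile 2 at 6 h. Beyond the 1 h baseline, the size rules and the probe sets that an alternative leaves out or adds, the cause was not tested.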
